A study of Mus musculus with 10 samples.

Results

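The 36 mouse genes described here encode the machinery that stores neurotransmitter in synaptic vesicles, docks and primes the vesicles and fuses them with the presynaptic membrane. They were chosen by name as SNARE proteins, synaptotagmins, complexins, synapsins, vesicle membrane proteins, priming and active zone proteins and Rab3 GTPases. A probe was matched by RefSeq accession to 35 of them, and 31 could be tested among 17597 named genes of the arrays. Total RNA of the hippocampus was hybridised to 10 one-colour arrays, with 1 array per mouse. The 5 PGC-1αf/f mice carried, at the Rosa26 locus, a PGC-1α transgene behind a floxed stop cassette and no Cre recombinase. The 5 nPGC-1α mice carried the same allele and a Cre driven by the Eno2 promoter, which removes the stop cassette in neurons so that PGC-1α and eGFP are expressed. All mice were on a C57BL/6 background, were labelled as males of 12 weeks, and were studied without ischemia.

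Fusion of a synaptic vesicle is driven by the SNARE complex of syntaxin 1 and SNAP-25 on the plasma membrane and synaptobrevin (VAMP) on the vesicle. Munc13 and RIM proteins prime docked vesicles at the active zone, complexins clamp and promote the assembled complex, and calcium-binding synaptotagmins trigger fusion when calcium enters. Synapsins hold the reserve pool of vesicles, and Rab3 GTPases tether vesicles to RIM. PGC-1α is a transcriptional coactivator best known for genes of mitochondria and energy metabolism, and vesicle release is one of the large energy costs of a nerve terminal.

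Values are log2 levels relative to the 75th percentile of each array, so a level of 0 is as bright as that percentile and a difference of 1 is a 2-fold change. A probe's brightness depends on its own sequence, so levels of different genes have no common scale and the arrays do not show which isoform of a family is the most abundant. What they do show is detection and the difference of one probe between genotypes. A probe well above background on all 10 arrays was found for 34 of the 35 matched genes. The exception was Sv2c. In whole tissue, fewer cells of a type and less RNA per cell cannot be told apart.

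The targeted gene, Ppargc1a, gave levels of 2.20 ± 0.08 in PGC-1αf/f and 2.20 ± 0.11 in nPGC-1α (SD, n = 5 each), so its tested probe did not separate the genotypes. A second Ppargc1a probe, with values on 5 arrays only after outlier marks, read 1.14 and 1.11 and was not tested. Whether these probes detect the transgene was not examined, and the genotypes rest on the labels. Y-linked probes were well above background on 4 arrays (PGC-1αf/f 1 and nPGC-1α 1, 3 and 5) and not on the other 6, although all mice were labelled male. PGC-1αf/f 2 stood apart by medial habenula genes, with a median of 0.72 above the mean of the 10 arrays, and nPGC-1α 3 by choroid plexus genes, with 2.14. Choroid plexus genes were also high on PGC-1αf/f 4 (1.35) and PGC-1αf/f 2 (0.68), against -0.93 to -0.18 on the other arrays. Oligodendrocyte markers had a median difference of 0.29 (7 of 8 above 0, 0 of 8 at an unadjusted p of 0.05). They stood at 0.34 to 0.37 on nPGC-1α 3, 4 and 5, but at -0.35 on nPGC-1α 1 and -0.06 on nPGC-1α 2. In PGC-1αf/f they were lowest on array 1 (-0.52) and stood at -0.20 to 0.09 on the others. The part of these tissue and cell type genes in the values that follow was not tested. Replicates 1 to 4 lay on 1 slide, PGC-1αf/f in its row 1 and nPGC-1α in its row 2, so row and genotype cannot be told apart there. The lowest signal marked as well above background was 24.2 to 41.2 on PGC-1αf/f arrays and 50.4 to 97.9 on nPGC-1α arrays, so dim probes cleared it less readily in nPGC-1α. The labels call the samples neurons, but all 8 astrocyte and all 8 oligodendrocyte markers listed were well above background on every array, as were all 8 pan-neuronal markers. The summed level of the pan-neuronal markers ranged from 47.5 to 54.4 times the 75th percentile in PGC-1αf/f and from 45.8 to 53.2 in nPGC-1α.

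No release machinery gene differed between the genotypes at an adjusted limma p of 0.05 (0 of 31, against 0.00568% of all genes tested). At an unadjusted p of 0.05, 3 of the 31 were higher in nPGC-1α, namely Cplx3, Syt16 and Unc13a, a share of 9.68% against a background of 3.18% of all genes. None was lower, against a background of 5.03%. That background includes dim probes that passed the filter in 1 group only. Among probes well above background on all 10 arrays, which keeps all 31 genes, 625 of 16287 genes were lower and 586 higher. Of the 31, 1 was lower and 3 were higher there. The exact Mann-Whitney test, the kind of test named in the study's methods, gave 1 gene of the 31 (Cplx3) at an unadjusted p of 0.05 and 0 after adjustment. Over all 17597 genes it gave 380 higher and 634 lower at that unadjusted p. The median difference over the 31 genes was 0.02, with 17 above 0 and 14 below, and that of all genes tested was -0.02. The groups overlapped for each of the 31. Separation was rare over the whole array too. Of 34000 kept probes with a value on every array, 691 were lower and 241 higher in nPGC-1α without overlap. Each slide held equal numbers of both groups, so slide as a block cannot change the difference of a gene with all values. Those of Cplx3, Syt16 and Unc13a thus stayed at 0.41, 0.28 and 0.31, which is no check on slide. On slide 1 alone, with 4 arrays per group, they were 0.41, 0.25 and 0.33. Syt16 no longer passed an unadjusted p of 0.05 there. Slide 2 held 1 array per group and gives no test.

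**Figure D1:**
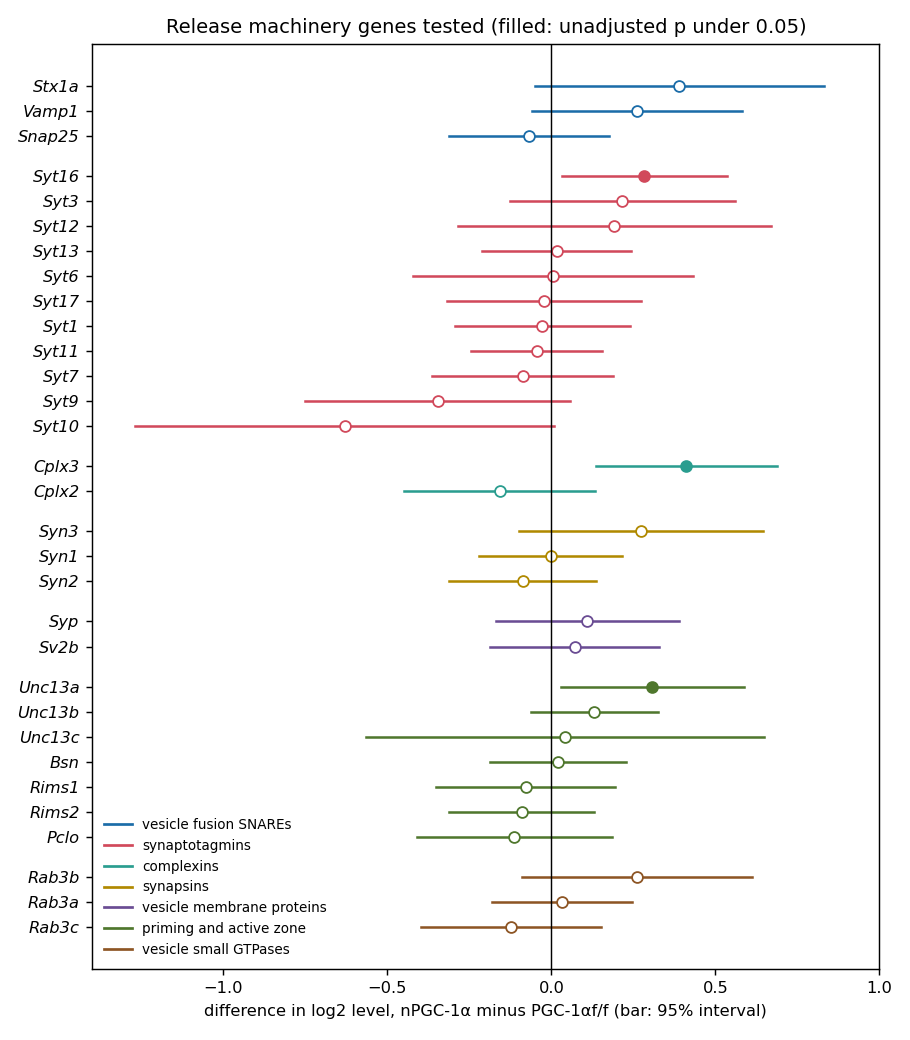
Difference in log2 level (nPGC-1α minus PGC-1αf/f) of the 31 release machinery genes tested, grouped by role. Points are limma estimates, bars their 95% intervals, and filled points have an unadjusted p under 0.05; the filled points are Cplx3, Syt16 and Unc13a, and the lowest estimate is Syt10 at -0.63.

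The sequence before the transcription start was read from RefSeq (GRCm38.p6) for the 26 genes of the 36 that the promoter table holds. Letters of 4 motifs were searched on both strands in the 250 bases before each start. AAGGTCA, the half-site of the estrogen-related receptors that PGC-1α coactivates, was found for 1 of 26 genes (Syt6), against 3.88% of 13865 tested genes with a promoter. GCGCATGC, from the site of NRF1, another partner of PGC-1α, was found for 2 of 26 (Syn1 and Bsn), against 4.01%. TGACGTCA, the cAMP response element, was found for Syn1, against 2.60%. GGGCGG, the GC box, was found for 20 of 26 (76.9%), against 55.1%. Reverse complements were counted too, and in a palindromic GCGCATGCGC run both strands match. These are matches of letters and were not tested as sites.

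The first 3 sequences below belong to the genes with an unadjusted p under 0.05, and the other 2 to the genes with NRF1 letters. Capitals mark matches of the first 3 motifs named, and each sequence runs 5′ to 3′ on the gene's strand and ends at the base before the start.
Cplx3 (chr9:57606282-57606531, minus strand): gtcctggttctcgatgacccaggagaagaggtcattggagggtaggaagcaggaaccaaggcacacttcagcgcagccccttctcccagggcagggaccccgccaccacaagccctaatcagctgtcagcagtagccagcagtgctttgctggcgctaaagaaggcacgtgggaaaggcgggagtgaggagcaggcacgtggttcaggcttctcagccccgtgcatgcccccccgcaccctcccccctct
Syt16 (chr12:73997527-73997776, plus strand): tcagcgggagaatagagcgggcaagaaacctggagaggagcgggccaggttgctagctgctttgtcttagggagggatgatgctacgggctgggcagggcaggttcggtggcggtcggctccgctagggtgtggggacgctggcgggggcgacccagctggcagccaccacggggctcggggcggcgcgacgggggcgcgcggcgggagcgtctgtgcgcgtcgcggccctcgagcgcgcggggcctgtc
Unc13a (chr8:71671758-71672007, minus strand): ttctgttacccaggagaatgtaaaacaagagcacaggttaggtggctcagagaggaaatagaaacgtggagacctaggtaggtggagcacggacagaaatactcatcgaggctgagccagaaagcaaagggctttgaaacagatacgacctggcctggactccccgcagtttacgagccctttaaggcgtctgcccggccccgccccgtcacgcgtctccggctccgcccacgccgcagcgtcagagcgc
Syn1 (chrX:20920919-20921168, minus strand): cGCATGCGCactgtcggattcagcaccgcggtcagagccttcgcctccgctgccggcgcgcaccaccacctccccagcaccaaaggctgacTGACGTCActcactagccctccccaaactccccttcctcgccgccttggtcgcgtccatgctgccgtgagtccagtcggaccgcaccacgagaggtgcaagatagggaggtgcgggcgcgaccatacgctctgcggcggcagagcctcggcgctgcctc
Bsn (chr9:108190384-108190633, minus strand): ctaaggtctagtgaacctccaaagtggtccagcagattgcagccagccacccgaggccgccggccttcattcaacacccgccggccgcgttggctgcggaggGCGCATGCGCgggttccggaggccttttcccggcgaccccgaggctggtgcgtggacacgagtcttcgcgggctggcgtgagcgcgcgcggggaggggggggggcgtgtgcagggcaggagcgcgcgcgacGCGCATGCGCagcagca
The 3 genes with the lowest unadjusted p hold no match of the first 3 motifs in this window. Syn1 and Bsn, which hold NRF1 letters, differed by 0.00 and 0.02 in log2 level between the genotypes.

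Among the SNARE genes, Snap25, the plasma membrane SNARE that supplies a pair of helices to the complex, had levels of 4.39, 4.07, 3.88, 4.17 and 3.95 on PGC-1αf/f arrays 1 to 5. On nPGC-1α arrays 1 to 5 its levels were 4.20, 4.03, 3.90, 4.02 and 3.96. The PGC-1αf/f arrays spanned all of the nPGC-1α values, and the difference was -0.07 (95% interval -0.31 to 0.18, adjusted p = 0.828). The small difference turned positive under other scalings, being 0.08 after quantile normalisation. Stx1a, which encodes syntaxin 1A, was -0.37, -0.75, -0.11, -0.14 and 0.18 in PGC-1αf/f and 0.14, 0.57, -0.03 and -0.08 on nPGC-1α arrays 2 to 5, the spot on nPGC-1α 1 being marked as an outlier. PGC-1αf/f 2 was the lowest array and nPGC-1α 3 the highest, and both stood apart by genes of other tissue. The difference of 0.39 had an interval from -0.05 to 0.83 (adjusted p = 0.472, exact permutation p = 0.103). It was 0.12 without both of those arrays, 0.25 without nPGC-1α 3 and 0.26 without PGC-1αf/f 2, and would pass an unadjusted limma p of 0.05 without PGC-1αf/f 5 (0.49). Vamp1, a synaptobrevin, differed by 0.26 (-0.06 to 0.58, adjusted p = 0.508). Its nPGC-1α arrays lay within 0.06 to 0.26, inside the range from -0.49 to 0.35 of PGC-1αf/f.

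Vamp2, the main vesicle synaptobrevin of the forebrain, could not be tested in the same way because its spot was marked as an outlier on 5 arrays. With those spots kept, its levels were 3.01, 2.96, 2.81, 3.41 and 3.29 in PGC-1αf/f and 3.40, 3.16, 3.07, 3.23 and 3.18 in nPGC-1α. The groups overlapped, with PGC-1αf/f 4 the highest array and PGC-1αf/f 3 the lowest, and the difference was 0.11 (SE 0.13, adjusted p = 0.736).

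Of 13 synaptotagmins, 11 were tested, 5 with a difference above 0 and 6 below, with a median of -0.02. Syt1, the fast calcium sensor of evoked release, had levels of 3.44, 3.16, 3.06, 3.50 and 3.08 in PGC-1αf/f and 3.18, 3.13, 3.25 and 3.32 on nPGC-1α arrays 2 to 5. The nPGC-1α values fell inside the range of the controls, and the difference was -0.03 (-0.29 to 0.24, adjusted p = 0.941), with a sign that changed under quantile normalisation (0.11). Syt7, a slower sensor with a part in asynchronous release and vesicle replenishment, differed by -0.09 (-0.36 to 0.19). Syt11, which does not bind calcium, differed by -0.04 (-0.24 to 0.16), with values between 3.25 and 3.40 on the 8 arrays that gave one.

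Syt16, an atypical synaptotagmin without calcium-binding residues, had levels of 1.11, 0.77, 1.05, 1.12 and 1.17 in PGC-1αf/f. In nPGC-1α they were 1.33, 1.09, 1.42, 1.23 and 1.57. Only nPGC-1α 2 lay within the control range, nPGC-1α 5 was the highest array and PGC-1αf/f 2 the lowest. The difference was 0.28 (SE 0.11, 1.22-fold; adjusted p = 0.367, exact permutation p = 0.0317). It missed an unadjusted limma p of 0.05 without PGC-1αf/f 2 (0.22), without nPGC-1α 3 (0.26) or without nPGC-1α 5 (0.22). Among the 6 arrays without Y-linked signal, PGC-1αf/f 2 to 5 and nPGC-1α 2 and 4, it was 0.13.

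The lowest difference of the 31 genes was that of Syt10, a synaptotagmin known from regulated secretion in olfactory bulb neurons and from induction by seizures. Its brightest probe read -2.37, -2.93, -3.23, -3.73 and -3.50 in PGC-1αf/f and -2.95, -3.66, -4.03, -4.25 and -4.03 in nPGC-1α. Both groups were highest on array 1, and nPGC-1α 1 and 2 lay within the control range while nPGC-1α 3, 4 and 5 lay below it. The difference was -0.63 (SE 0.29, 95% interval -1.27 to 0.01, adjusted p = 0.427, exact permutation p = 0.0952). It came below an unadjusted limma p of 0.05 under 11 of 26 alternatives, including quantile normalisation (-0.62), and the adjusted p ranged from 0.0911 to 1.00 over them. A second Syt10 probe, which does not share this pattern, read -4.47, -4.80, -4.71, -4.68 and -4.69 in PGC-1αf/f and -5.24, -4.56, -4.81, -5.19 and -2.66 in nPGC-1α, with a difference of 0.18 (adjusted p = 0.886) and nPGC-1α 5 far above the other arrays.

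Syt9, a fast calcium sensor of some limbic and striatal neurons, had levels of -2.24, -1.43, -1.96, -2.25 and -2.51 in PGC-1αf/f and -2.66, -2.28, -2.28, -2.36 and -2.53 in nPGC-1α. The controls ran from -2.51 to -1.43, with PGC-1αf/f 2 the highest, and nPGC-1α 2, 3 and 4 lay within that range while nPGC-1α 1 and 5 lay below it. The difference was -0.35 (-0.75 to 0.06, adjusted p = 0.484, exact permutation p = 0.0873), and without PGC-1αf/f 2 it was -0.185. The other tested synaptotagmins, Syt3, Syt6, Syt12, Syt13 and Syt17, differed by between -0.02 (Syt17) and 0.22 (Syt3, a high-affinity calcium sensor), each with an interval that includes 0. Syt4, with outlier marks on 5 arrays, differed by -0.03 when those spots were kept (SE 0.21, adjusted p = 0.970). No probe was matched for Syt5.

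Both complexins were tested. Cplx2, the widespread forebrain complexin, had levels of 4.86, 4.51, 4.22, 4.64 and 4.56 in PGC-1αf/f and 4.69, 4.37, 4.18, 4.32 and 4.43 in nPGC-1α. The groups overlapped for most of their range, with a difference of -0.16 (-0.45 to 0.13, adjusted p = 0.657), and a second Cplx2 probe gave -0.20. The difference was near 0 after quantile normalisation (-0.0010), in the authors' log2 values (-0.0010) and with normexp correction (-0.0198), and -0.08 without PGC-1αf/f 1. Cplx3, a lipid-anchored complexin known from retinal ribbon synapses and cortical subplate neurons, had levels of -0.81, -1.30, -0.96, -1.16 and -0.99 in PGC-1αf/f and -0.54, -0.70, -0.42, -0.94 and -0.56 in nPGC-1α. Each nPGC-1α array but 1 was above every control, and nPGC-1α 4 lay below PGC-1αf/f 1 alone. This was the largest positive difference of the 31 genes, 0.41 (SE 0.13, 95% interval 0.14 to 0.69, 1.33-fold; exact permutation p = 0.0159), and it did not pass adjustment over all probes (adjusted limma p = 0.249). It remained under an unadjusted p of 0.05 in 25 of 26 alternatives, leaving out each array among them, with an adjusted p from 0.0927 to 0.969. The exception was the comparison restricted to the 6 arrays without Y-linked signal, where it was 0.28. Markers of excitatory neurons listed here had a median difference of 0.07 (1 of 8 higher at an unadjusted p of 0.05) and those of inhibitory neurons -0.03 (0 of 8), and their part in the Cplx3 difference was not tested.

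**Figure D2:**
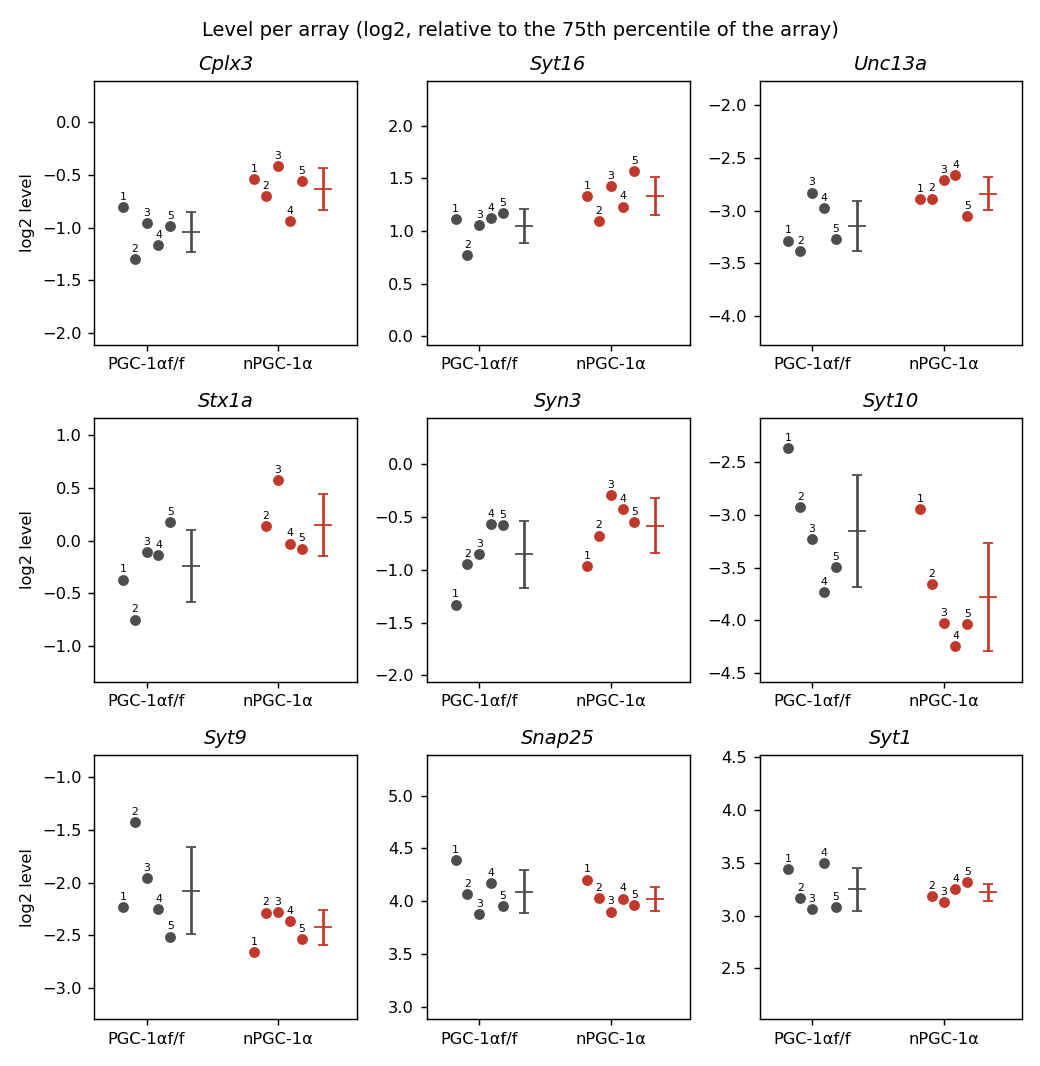
Log2 level relative to the 75th percentile of the array for 9 release machinery genes on each PGC-1αf/f (grey) and nPGC-1α (red) array; small digits are replicate numbers, and bars at the right of each group show mean and SD. Every panel spans the same 2.5 log2 units; the groups overlap in each, by the least for Cplx3 and Syt16, while Snap25 and Syt1 values of nPGC-1α lie inside the control range.

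The 3 synapsins coat vesicles and tie them into the reserve pool. Syn1 and Syn2, the abundant adult forms, differed by 0.00 (-0.22 to 0.22, adjusted p = 0.994) and -0.09 (-0.31 to 0.14, adjusted p = 0.752). Syn3, the form known from developing neurons and adult-born granule cells, had levels of -1.33, -0.94, -0.85, -0.56 and -0.57 in PGC-1αf/f and -0.96, -0.67, -0.29, -0.42 and -0.55 in nPGC-1α. Array 1 was the lowest of both groups, nPGC-1α 3, 4 and 5 were above every control, and the groups overlapped. The difference was 0.27 (-0.10 to 0.65, adjusted p = 0.548), and 0.15 without PGC-1αf/f 1. A second, dim Syn3 probe read -6.76, -6.96, -6.38, -6.05 and -7.02 in PGC-1αf/f and -6.52, -6.79, -7.17, -6.38 and -6.45 in nPGC-1α. It cleared the background on 4 control arrays and 1 nPGC-1α array and was not tested, and its group means of -6.63 and -6.66 were alike.

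Among vesicle membrane proteins, Syp (synaptophysin, the standard vesicle marker) differed by 0.11 (-0.17 to 0.39, adjusted p = 0.752) and Sv2b, a transporter-like vesicle glycoprotein, by 0.07 (-0.19 to 0.33, adjusted p = 0.831). Sv2a, the vesicle glycoprotein that binds levetiracetam, had outlier marks on 6 arrays. With these spots kept it read 2.82, 2.58, 2.90, 3.13 and 2.92 in PGC-1αf/f and 3.04, 2.98, 3.06, 3.10 and 3.01 in nPGC-1α, all 5 of the latter within the control range, with a difference of 0.17 (SE 0.10, adjusted p = 0.535). Sv2c, the form of basal ganglia, was near the limit of detection. One of its probes cleared the background on 4 arrays of each group, with levels of -6.38, -6.67, -6.04, -6.11 and -6.46 in PGC-1αf/f and -5.40, -6.24, -6.42, -5.87 and -6.13 in nPGC-1α. The other cleared it on 4 control arrays and on nPGC-1α 5 only, where it read -4.52 against -8.02 to -7.57 on the other nPGC-1α arrays.

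All 7 priming and active zone genes were tested. Unc13a encodes Munc13-1, the priming factor of most excitatory synapses of the hippocampus, and had levels of -3.28, -3.38, -2.83, -2.97 and -3.27 in PGC-1αf/f. In nPGC-1α they were -2.89, -2.89, -2.71, -2.66 and -3.05. PGC-1αf/f 3 and 4 lay within the nPGC-1α range, and nPGC-1α 1, 2 and 5 lay within the control range. The difference was 0.31 (SE 0.13, 1.24-fold; adjusted p = 0.377, exact permutation p = 0.0556). It missed an unadjusted limma p of 0.05 when PGC-1αf/f 1, 2 or 5 or nPGC-1α 3 or 4 was left out, with differences of 0.25 to 0.28. The paralogs Unc13b (Munc13-2; 0.13, -0.06 to 0.33, adjusted p = 0.581) and Unc13c (Munc13-3, best known from the cerebellum; 0.04, -0.57 to 0.65, adjusted p = 0.962) had intervals that include 0. The wide interval of Unc13c comes with PGC-1αf/f 1, which read 0.43 against -0.99 to -0.49 on the other controls.

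The RIM genes Rims1 and Rims2, whose products link Rab3, Munc13 and calcium channels, differed by -0.08 (-0.35 to 0.19) and -0.09 (-0.31 to 0.13). Bsn (bassoon), a giant scaffold of the active zone, differed by 0.02 (-0.19 to 0.23, adjusted p = 0.943). Pclo (piccolo), its relative, read 1.98, 1.73, 1.56, 1.81 and 2.09 in PGC-1αf/f and 2.05, 1.67, 1.54, 1.52 and 1.83 in nPGC-1α, with overlap of the groups and a difference of -0.11 (-0.41 to 0.18, adjusted p = 0.759). A second, dim Bsn probe read -8.08, -9.71, -7.10, -6.56 and -7.42 in PGC-1αf/f and -5.75, -5.95, -6.62, -6.19 and -6.47 in nPGC-1α. The groups overlapped only through PGC-1αf/f 4 and nPGC-1α 3, but the probe cleared the background on 2 control and 3 nPGC-1α arrays only, too few for a test.

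Of the Rab3 genes, Rab3a, the main form of forebrain terminals, differed by 0.03 (-0.18 to 0.25, adjusted p = 0.912). Rab3b differed by 0.26 (-0.09 to 0.61, adjusted p = 0.543), with PGC-1αf/f 2 at 0.93 against 1.61 to 1.80 on the other controls. Rab3c read 2.73, 2.33, 2.42, 2.57 and 2.74 in PGC-1αf/f and 2.42, 2.34, 2.25, 2.38 and 2.78 in nPGC-1α. Those groups overlapped over nearly the whole range, and the difference was -0.12 (-0.40 to 0.15, adjusted p = 0.709).

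Whether the balance within a family shifted was asked by subtracting the levels of 2 members on the same array, which removes the scaling of the array, and by comparing these values between genotypes. Of 16 pairs planned, 12 could be formed. Cplx2 minus Cplx3 was 5.60 ± 0.26 in PGC-1αf/f and 5.03 ± 0.27 in nPGC-1α (SD, n = 5 each), a change of -0.57 (exact permutation test, two-sided, p = 0.0238; 0.286 after Benjamini-Hochberg adjustment over the 12 pairs). The change of -0.57 is made of the Cplx3 difference (0.41) and the Cplx2 difference (-0.16), so it is not separate from them. It was -0.43 with normexp correction and -0.42 in the authors' log2 values (exact permutation p = 0.0397 and 0.0317). The size of the subtraction itself is that of 2 different probes and has no meaning as an isoform ratio. The other 11 pairs had exact permutation p-values from 0.143 (Rab3a with Rab3b, and Stx1a with Snap25) to 0.817 (Rims1 with Rims2). With outlier spots kept, the pairs of Vamp1 with Vamp2 (change of 0.15), Sv2a with Sv2b (0.10) and Syt1 with Syt4 (0.02) could be added, with exact permutation p-values from 0.397 to 0.929.

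Of the genes, 12 had more than 1 probe that passed the filter, with 14 probes beside the brightest. The other probes were above 0 in 12 of 14 cases, with a median of 0.17, while the brightest probes of the same 12 genes had a median of -0.08. The share above 0 among such other probes of all genes was not computed. Among the brightest 3915 probes of the arrays, at levels from 1.80 to 5.54, the median difference was -0.06. Of these, 57 were lower and 7 higher at an unadjusted p of 0.05. The brightest probes of Snap25, Syn2, Cplx2, Rab3a and Rab3c lay there. In bins of dimmer probes the median was -0.23 to -0.0008. For 8 genes (Snap25, Syt10, Syn2, Unc13c, Rims1, Rims2, Pclo and Rab3c) every other probe had the opposite sign to the brightest. None of the 14 had an unadjusted limma p under 0.05. The largest difference among them was that of a Rims1 probe at 0.44, against -0.08 for the brightest Rims1 probe. Unc13c ran the other way, with 0.04 for the brightest probe and -0.57 for the other. Probes of a gene can detect different transcripts, and which transcripts these probes detect was not examined here. The probes share arrays and are not independent of each other.

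**Figure D3:**
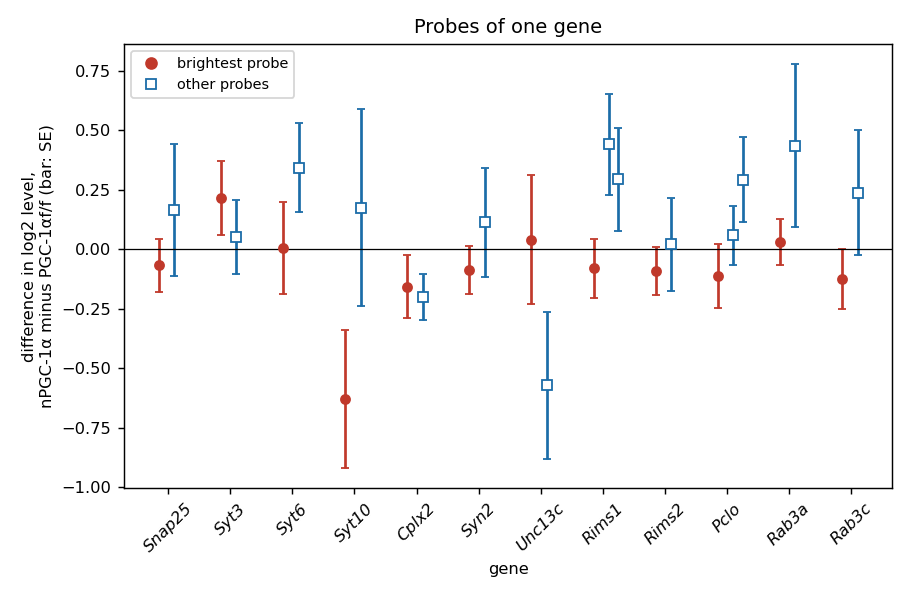
Difference in log2 level (nPGC-1α minus PGC-1αf/f, with SE) of each probe of the 12 release machinery genes that had more than 1 tested probe; red circles are the brightest probe and blue squares the others. In 12 of 14 cases the other probe is above 0, and for Rims1 the brightest probe is at -0.08 while the others are at 0.29 and 0.44.

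The arrays differed in how the 31 genes stood. With outlier spots kept, PGC-1αf/f 2 was the lowest of the 10 arrays for 13 of 31 genes, with a median of -0.17 relative to each gene's mean over the arrays. The other arrays were lowest for 0 to 4 genes and had medians from -0.08 to 0.13. All 3 genes with an unadjusted p under 0.05 (Cplx3, Syt16 and Unc13a) were among those 13. Syt9, Syt6 and Rims2 went the other way and were highest on PGC-1αf/f 2. On this array pan-neuronal markers had a median of -0.13 and medial habenula genes a median of 0.72. Pan-neuronal markers were lower still on nPGC-1α 3 (-0.15), where the median of the 31 genes was -0.04. The part of these markers in the release machinery values was not tested. Without PGC-1αf/f 2 and nPGC-1α 3, only Cplx3 of the 31 genes, against 258 higher and 409 lower of all 17597 genes, remained under an unadjusted p of 0.05. Without PGC-1αf/f 4, the other array with choroid plexus genes, Cplx3 (0.38), Syt16 (0.30) and Unc13a (0.35) stayed under it.

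**Figure D4:**
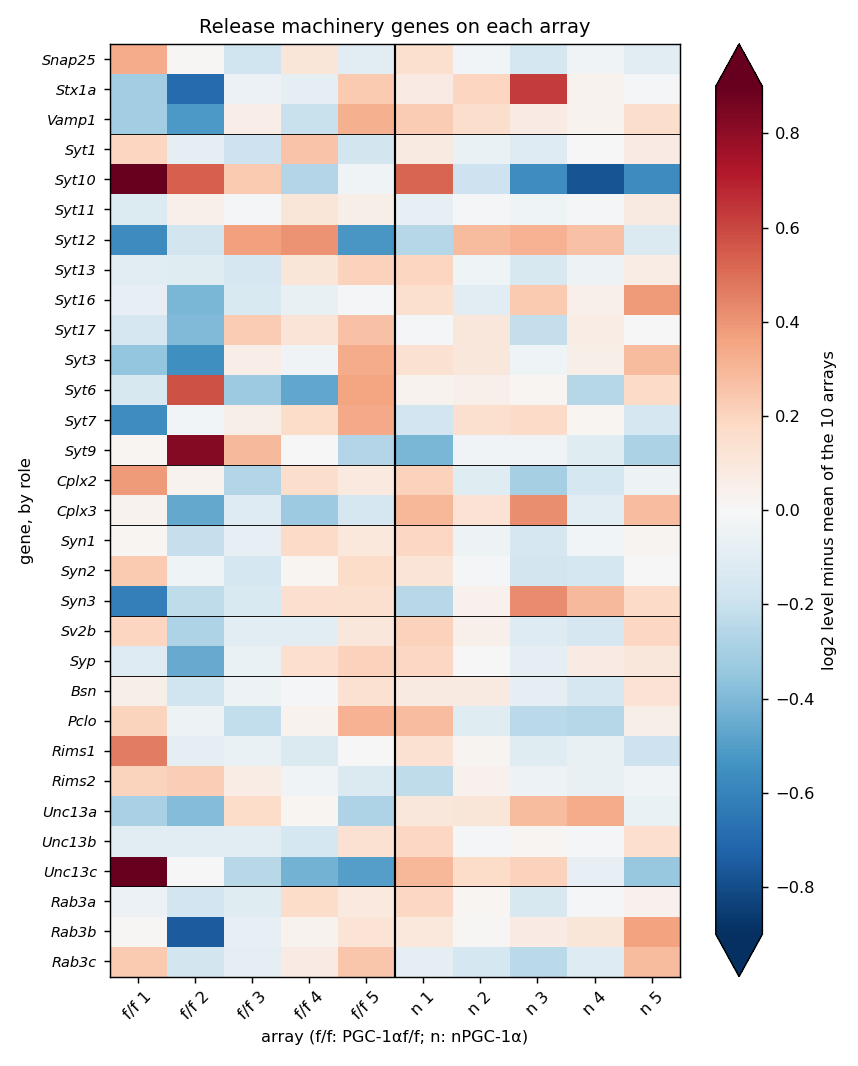
Log2 level of each release machinery gene tested on each array minus its mean over the 10 arrays, outlier spots included, with genes ordered by role and the line separating PGC-1αf/f (left) from nPGC-1α (right). PGC-1αf/f 2 holds the lowest value for 13 of the 31 genes, among them Stx1a, Vamp1, Rab3b and Syp, and is high for Syt9 and Syt6.

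A further 114 genes of the presynaptic terminal were listed beside the 36, and 107 of them were tested. None passed an adjusted limma p of 0.05. At an unadjusted p of 0.05, 8 were higher in nPGC-1α (7.48%, against 3.18% of all genes) and 4 lower (3.74%, against 5.03%), with a median difference of 0.01. Among 25 further SNARE and fusion factors, Syt2 (0.88), the fast calcium sensor of hindbrain and inhibitory terminals, was higher, and Syt14 (-0.61) was lower. Among 24 further priming and active zone genes, Rims3 (0.34) and Rimbp2 (0.40), whose product binds RIM and calcium channels, were higher, and Cadps2 (-0.22), a priming factor of dense-core vesicles, and Rab27b (-0.32) were lower.

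Among 22 further vesicle membrane genes, Slc30a3 (0.53), the zinc transporter of mossy fibre vesicles, and Syngr1 (0.61) were higher. Slc17a8, the vesicular glutamate transporter VGLUT3, was lower (-0.37). Its nPGC-1α mean of -6.93 was too low to clear the background on every nPGC-1α array. Slc17a8 thus passed the filter through PGC-1αf/f, where it is higher, and a lower call on such a probe is favoured by the filter. Among 26 vesicle recycling genes, Dnajc6 (auxilin; 0.52) and Sh3gl2 (endophilin A1; 0.99) were higher. None of 10 presynaptic calcium channel genes passed an unadjusted p of 0.05. Adjusted p-values of all these genes were 0.285 or more. Slc17a8, Syt2, Rims3 and Syt14 were dim, with mean levels of -6.56, -5.79, -5.28 and -5.21 in PGC-1αf/f. For Syt2 the controls had an SD of 0.73, against 0.30 in nPGC-1α. Slc17a8 lay among the dimmest 3914 probes of the arrays, at levels from -7.62 to -5.56. Their median difference was -0.23, with 918 lower and 64 higher at an unadjusted p of 0.05. Syt2, Rims3 and Syt14 lay among the next 3914 probes, from -5.56 to -4.71. The median difference there was -0.08, with 473 lower and 147 higher. For Sh3gl2 the controls had an SD of 0.88, against 0.33 in nPGC-1α.

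**Figure D5:**
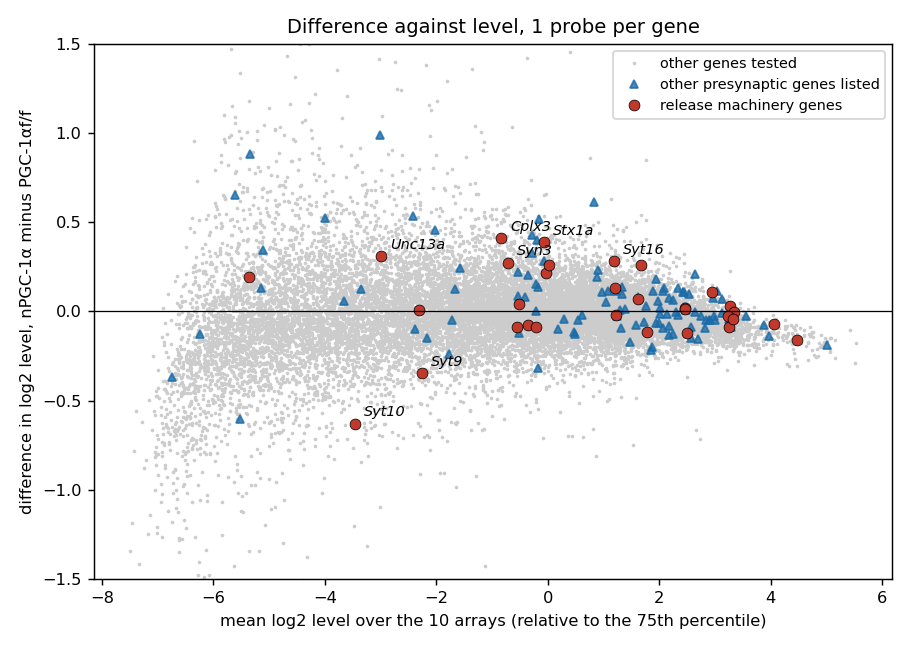
Difference in log2 level (nPGC-1α minus PGC-1αf/f) against mean log2 level over the 10 arrays, 1 probe per gene, for 31 release machinery genes (red), 107 other presynaptic genes (blue) and the other genes tested (grey). The axis ends at 1.5 in both directions and 16 genes lie beyond it; red points lie within the grey cloud of genes of like brightness, and most are on its bright side.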

How the data were processed

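Hippocampal RNA of 5 control (PGC-1αf/f) mice and 5 nPGC-1α mice was labelled with Cy3 and hybridised to Agilent arrays. Groups and replicate numbers came from the sample labels. The deposited scanner files hold spot intensity values after background subtraction by Feature Extraction 11.5.1.1 per the file headers. The authors also deposited log2 values for 41606 probes, made with GeneSpring, which served as an alternative. How they chose those probes, and their centring, is not stated. Spots marked as outliers were left out (0.192% to 11.6% of gene spots per array), repeat spots were averaged, and values were scaled to the 75th percentile of their array in log2.

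Probes that were well above background throughout 1 group or both (5 arrays each), with at least 3 values per group, were kept (39142 of 56605). RefSeq names (GRCm38.p6) covered 59.7% of the probes. The brightest probe that passed this filter stood for a gene. limma 3.58.1 (lmFit and eBayes, two-sided, no covariates) was run in R 4.3.3 with Benjamini-Hochberg adjustment over the 39142 probes, and was tested on simulated data. Group means of single genes and of gene pairs were compared by exact permutation tests over the arrays, run in Python 3.11.15. Intervals and the adjustment over gene pairs used scipy 1.17.1. Precision is limited by how many mice were used.

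The genes and lists were chosen with earlier results of these data known. Values on each array are given for genes with an unadjusted p under 0.05, the 5 largest differences in each direction, genes with a probe not well above background, and Stx1a, Snap25, Vamp2 and Syt1. Alternatives were other normalisations and filters, slide, replicate or Y-linked class in the fit, other choices of probe, and leaving out arrays. No label ties mice of the same replicate number to each other, so the mice were treated as unpaired. The result of 1 presynaptic gene is counted but not reported here by name.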

Additional observations from a re-analysis of the deposited data

Results flagged for a closer look

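In 99 groups of 4 or 5 values (each member probe in each genotype, and the median of the members), 8 single arrays lay far from their group by Dixon's test at 95%, where chance would give about 1 in 20. PGC-1αf/f 2 was low for Rab3b (0.93, others 1.61 to 1.80) and for a second Syn2 probe (-0.18, others 0.75 to 0.92). nPGC-1α 5 was high for Rab3b (2.04, others 1.69 to 1.79), for a dim Sv2c probe (-4.52, others -8.02 to -7.57) and for a second Syt10 probe (-2.66, others -5.24 to -4.56). PGC-1αf/f 1 was high for Rims1 (0.11, others -0.48 to -0.35), PGC-1αf/f 5 for Unc13b (1.34, others 1.048 to 1.105) and nPGC-1α 2 for the second Syn2 probe (0.88, others 0.61 to 0.63). For that Syn2 probe the spots on PGC-1αf/f 1 and nPGC-1α 1 were left out by outlier marks. When kept they read 0.55 and 0.84, so nPGC-1α 2 did not stand apart from nPGC-1α 1.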

How the results depend on the processing

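No alternative gave a release machinery gene at an adjusted p of 0.05, and the median difference stayed between -0.01 and 0.10 over 25 alternatives. Genes higher at an unadjusted p of 0.05 numbered 3, and became 5 with the replicate block, 1 without the 2 arrays with genes of other tissue, 1 by the exact Mann-Whitney test and 0 on the arrays without Y-linked signal. They ranged from 1 to 5 when 1 array was left out (1 without PGC-1αf/f 2 or nPGC-1α 3, 5 without PGC-1αf/f 5). The count of higher genes among all genes tested also rose with the replicate block and without PGC-1αf/f 5. It also fell in each of the other settings just named. These changes can thus not be read as changes of the release machinery genes alone. Release machinery genes lower numbered 0, against 885 of all genes. They became 1 under quantile normalisation (799 of all genes), median scaling (777), the authors' log2 values (831) and the filter on all arrays (625). The Y-linked class as a term (920) and a mean-variance trend (909) also gave 1. There were 2 with normexp correction (706) and with the replicate block (1242). Without 1 array there were 0 to 2. There was 1 without PGC-1αf/f 4 (1025) or nPGC-1α 1 (960), and 2 without PGC-1αf/f 5 (1074). Gene pairs at an unadjusted exact permutation p under 0.05 numbered 1, and 1 to 2 without 1 array (2 without PGC-1αf/f 4, nPGC-1α 1 or nPGC-1α 5). The cause of these changes was not tested.

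Signs turned for differences near 0. Snap25 was 0.0824 after quantile normalisation, 0.0892 with normexp, 0.0819 in the authors' log2 values, 0.0104 on the arrays without Y-linked signal and -0.12 to 0.0068 without 1 array. Syt1 was 0.11, 0.0535, 0.0967 and 0.0162 under those settings, 0.0198 with the replicate block and -0.0745 to 0.0352 without 1 array. With the mean of all probes of a gene, Pclo was 0.0796. Rab3c came to 0.48 there because its dimmer probe has no value on nPGC-1α 1 and 5, so this value is no change of the gene. Deviations of same-numbered mice correlated by 0.0776 to 0.356 across probes (4 of 5 pairs over 0.1) and those of other pairs by -0.276 to 0.241; 5 of 10 arrays correlated best with their own number, a hint from the data and not the design. With the replicate block Syt10 was -0.63 (adjusted p = 0.0911).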
